A study of Mus musculus with 8 samples.

Results

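RNA was measured for 48 genes of TGF-β, BMP and activin signaling in sorted muscle stem cells (MuSCs) of mice on a vitamin A-free (VA-free) or a control diet. The genes were listed by name as ligands, a processing protease, latent TGF-β binding proteins, receptors, co-receptors, antagonists, SMADs and ID target genes, and are 48 of the 36047 genes in the data. All mice were 5- to 6-month-old male Pax7-nTnG mice, which carry a tamoxifen-inducible Cre under Pax7 (Pax7CreERT2) and the Rosa26nTnG reporter that turns nuclei green after recombination. The VA-free mice (n = 3) received a diet without vitamin A and the control mice (n = 2) received normal chow, both for 8 weeks, and both groups were given tamoxifen. Green, DAPI-negative cells of the gastrocnemius and quadriceps were sorted, so a cell counts as a MuSC here through its Pax7-driven label and its place in the sort. The RNA of a mouse was split at the spin column into technical samples A and B, and 8 libraries were used, namely B of VA-free mouse 1, A of VA-free mouse 2, and both of VA-free mouse 3 and of each control mouse. Each library held between 44831232 and 88650428 estimated counts. Values are CPM, counts scaled to 1000000 per library after TMM normalization, with the libraries of a mouse added, and differences are log2 fold changes of VA-free over control with their standard error (SE). Adjusted p-values come from edgeR's quasi-likelihood test over the 17997 genes that passed its filter, and a change is named as one below an adjusted p of 0.05.

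Ligands of this family are secreted dimers. TGF-β is released bound to its own propeptide and to latent TGF-β binding proteins, which tether it in the matrix until it is freed. A dimer brings type II and type I receptor kinases together, and the type I receptor phosphorylates SMAD2 and SMAD3 for TGF-β, activin and myostatin or SMAD1, SMAD5 and SMAD9 for BMPs, after which these SMADs enter the nucleus with SMAD4. BMP signaling turns on the ID genes, whose products hold back basic helix-loop-helix factors such as MyoD. In muscle, TGF-β and myostatin are known to restrain myogenic differentiation and BMPs to favour growth of the progenitor pool.

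Of the 46 members tested, 21 rose on the VA-free diet, 10 fell and 15 did not pass the test, beside 18.9% of all tested genes called higher and 22.5% called lower. In share, 45.7% of the members tested rose and 21.7% fell, and the median log2 fold change was 0.43 over the members and 0.003 over all genes. In CPM, all 4 VA-free libraries stood above all 4 control libraries for 20 members and below them for 9, beside 19.9% and 21.4% of all tested genes. Most members of the latent TGF-β complex, the type II receptors, the receptor-regulated SMADs and SMAD4 were among the rises. The falls were among BMP ligands, the activin subunit Inhba, the receptor genes Acvrl1 and Eng, secreted antagonists and ID genes. Noggin (Nog) and gremlin 1 (Grem1), both BMP antagonists, were not tested, with at most 24 and 6 estimated counts in any library.

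**Figure D1:**
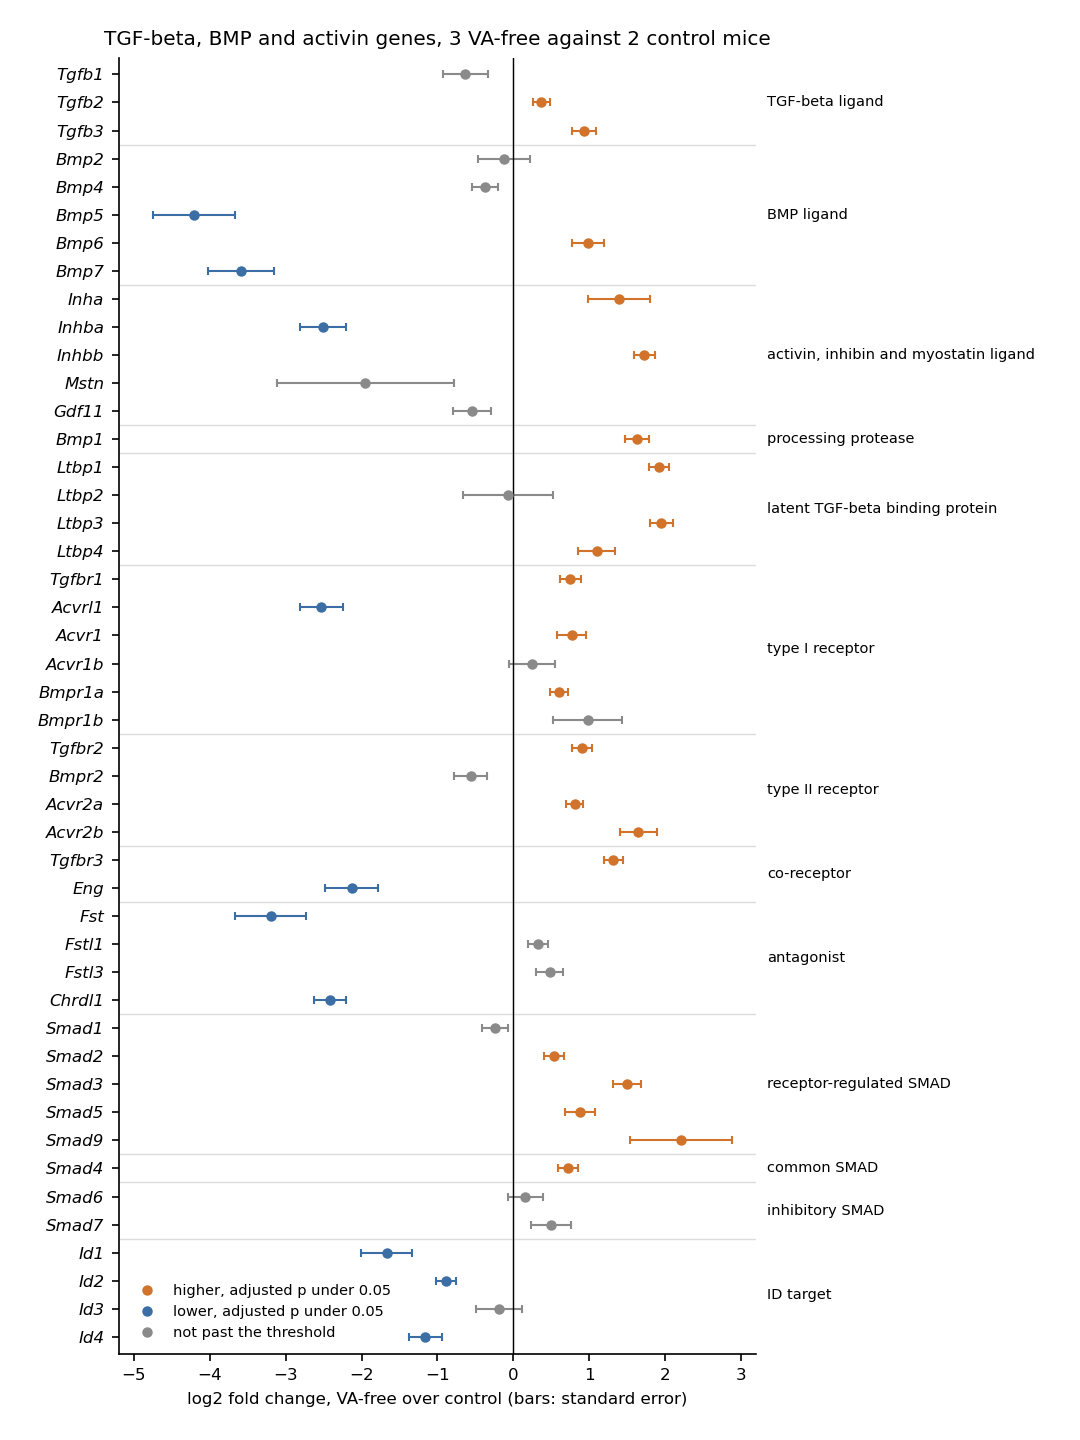
Log2 fold change of VA-free over control (x axis) for the 46 members tested, grouped by role, with bars for the SE and colors for the call from edgeR. The latent TGF-β binding proteins other than Ltbp2 lie between 1.10 and 1.95, and Bmp5 lies farthest to the left at -4.21.

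The count of rises moved with transcript length and with control library 2B. The log2 fold change rose with effective length over all genes, from a median of -0.68 in the shortest to 0.55 in the longest of 5 equal bins, and 18 of the 46 members lay in the longest bin and 1 in the shortest. With this trend removed, 12 members rose and 11 fell and the median was 0.21, while over all genes the calls went from 3403 to 2176 higher and from 4056 to 3170 lower. Control library 2A lay more than 2-fold below control library 2B, from the same mouse, for 16 of the 46 members and more than 2-fold above it for 2. The root mean square log2 difference between libraries was 1.056 over members and 0.871 over all tested genes in control mouse 2. It was 0.409 and 0.459 in control mouse 1 and 0.226 and 0.229 in VA-free mouse 3, so the libraries of control mouse 2 differed over all genes too. Without library 2B 11 members rose and 9 fell, beside 1613 and 2863 of all genes. Without library 2A 20 members rose and 12 fell (3237 and 3873 of all genes). Without the whole of control mouse 2, which leaves 1 control mouse, the median over the members was 0.41.

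The sorted samples also differed in cell type markers, none of which is a member. Summed over 14 MuSC markers (Sdc4, Spry1 and Msc the most abundant in TPM) the level was 8910 to 9519 CPM in the VA-free libraries and 3158 to 5403 CPM in the control libraries, and 13 of them rose, with a median log2 fold change of 1.24. Pax7 itself stood at 151, 145 and 99.3 CPM in the VA-free mice and 79.9 and 76.2 CPM in the control mice. All 13 endothelial markers, with Egfl7, Pecam1 and Esam the most abundant in TPM, fell, with a sum of 282 to 398 CPM against 1513 to 3831 CPM. All 11 Schwann cell markers fell (503 to 529 against 1155 to 1461 CPM), as did 8 of 10 tenocyte markers (959 to 1404 against 1678 to 1990 CPM), 9 of 14 myofiber markers (380 to 479 against 601 to 753 CPM) and 4 of 14 macrophage markers (29.4 to 177 against 195 to 993 CPM). Fibro-adipogenic progenitor markers fell in 10 of 12 cases with a median of -3.43, while their sum, most of it Gsn, overlapped at 5519 to 6813 and 6183 to 6614 CPM. Sums of pericyte and smooth muscle markers (2 rises and 6 falls of 11) and of dissociation and immediate early genes (2 rises and 3 falls of 15) overlapped as well. In such bulk samples fewer cells of a type and less RNA per cell cannot be told apart. The part of these marker changes in the rises and falls of the members, among them ligands, receptors and SMADs, was not tested.

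**Figure D2:**
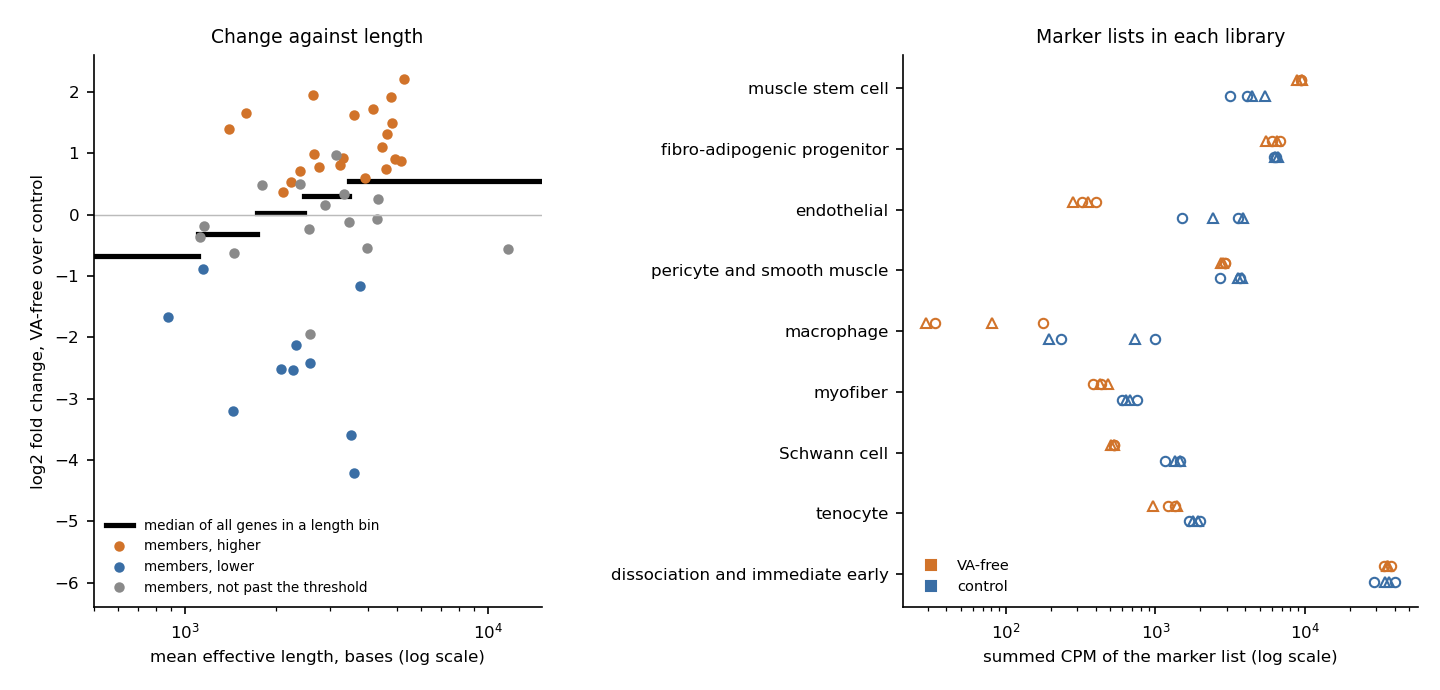
Left, log2 fold change of each member against its effective length in bases on a log axis, with black bars for the median of all genes in each of 5 length bins, which rise from -0.68 to 0.55. Right, summed CPM of each marker list on a log axis, 1 symbol per library (circle A, triangle B). MuSC markers are higher and endothelial markers lower in every VA-free library than in every control library.

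Levels per length, in TPM (transcripts per 1000000), placed Id3 first on both diets, with 1896 TPM in the VA-free and 1544 TPM in the control mice as means. Ltbp4 followed on the VA-free diet at 919 TPM, then Tgfbr3 (376 TPM), Fstl1 (348 TPM) and Bmp4 (286 TPM). In the control mice the order after Id3 was Id1 (422 TPM), Ltbp4 (340 TPM), Bmp4 (280 TPM), Id2 (246 TPM) and Fstl1 (200 TPM). The control mice overlapped between neighbours in this order, with Id1 at 257 to 586 TPM and Ltbp4 at 306 to 374 TPM. Tgfbr3 had rank 7 in the control mice (101 and 111 TPM) and rank 3 in the VA-free mice (358 to 404 TPM), and Id1 had rank 10 in the VA-free mice (159 to 194 TPM).

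Among the TGF-β ligands, 2 of 3 rose. Tgfb3, the most abundant of them, stood at 365, 363 and 385 CPM in the VA-free mice and at 225 and 164 CPM in the control mice. Its log2 fold change was 0.93 (SE 0.16, adjusted p = 0.00388). Tgfb2 stood at 139, 127 and 134 CPM against 103 and 103 CPM, a smaller difference of 0.37 (SE 0.11, adjusted p = 0.029). Every VA-free library lay above every control library for both genes. Tgfb1, the isoform best known from platelets and immune cells, was 10.2, 10.9 and 12.4 CPM in the VA-free mice and 23.2 and 11.4 CPM in the control mice, which overlapped (log2 fold change -0.63, SE 0.30, adjusted p = 0.134). Without control library 2B the adjusted p was 0.0687 for Tgfb3 and 0.0951 for Tgfb2, and without library 2A Tgfb1 passed at -0.79 (adjusted p = 0.0219) while Tgfb2 missed (adjusted p = 0.106). With the length trend removed Tgfb3 was at 0.51 and Tgfb2 at 0.29 (adjusted p = 0.0468 and 0.0812), and without VA-free mouse 1, 2 or 3 Tgfb2 missed as well (adjusted p = 0.102, 0.066 and 0.0928).

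BMP ligands moved in both directions. Bmp6, known as an iron-responsive BMP in liver, rose from 130 and 107 CPM in the control mice to 193, 298 and 218 CPM (log2 fold change 0.99, SE 0.21, adjusted p = 0.00898). Bmp5 was 0.567, 0.449 and 1.18 CPM in the VA-free mice and 19.6 and 7.99 CPM in the control mice, the largest fall of any member at -4.21 (SE 0.54, adjusted p = 0.00123), or 18.5-fold. Bmp7 fell from 3.45 and 5.06 CPM to 0.36, 0.484 and 0.224 CPM (log2 fold change -3.59, SE 0.44, adjusted p = 0.00105). The diets did not overlap in any library for these 3 genes. Bmp4, the most abundant BMP ligand per length (in TPM), was 180, 156 and 203 CPM against 198 and 266 CPM, and the mice overlapped (log2 fold change -0.37, SE 0.17, adjusted p = 0.131). Bmp2 overlapped too, between 15.4 and 24.2 CPM in the VA-free mice and at 28.3 and 13.3 CPM in the control mice (log2 fold change -0.12, adjusted p = 0.814). Control library 2A set Bmp4 apart, with 375 CPM beside 187 CPM in library 2B. Without control mouse 1, which leaves 1 control mouse, the log2 fold change of Bmp4 was -0.57. The fibro-adipogenic, tenocyte, endothelial and Schwann cell markers fell in the same samples as Bmp5 and Bmp7, and their part in these falls was not tested.

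Activin and inhibin genes diverged by subunit. Inhbb, which encodes the βB subunit of activin B, rose from 30.2 and 25.1 CPM to 84.5, 99.5 and 91.4 CPM (log2 fold change 1.73, SE 0.14, adjusted p = 0.000345). In contrast, Inhba, the βA subunit of activin A, fell from 4.6 and 4.37 CPM to 0.884, 0.736 and 0.735 CPM (log2 fold change -2.51, SE 0.30, adjusted p = 0.000966). Both kept their calls under all 22 alternatives, and neither overlapped between the diets. None of these alternatives adjusts for cell type markers, and the part of the marker changes in the 2 differences was not tested. Inha, the α subunit that turns an activin into an inhibin, was low throughout, at 1.33, 1.4 and 1.53 CPM against 0.591 and 0.493 CPM (log2 fold change 1.39, SE 0.41, adjusted p = 0.031), and lost its call under 10 alternatives. Among these 10 were leaving out VA-free library 3B (adjusted p = 0.051), control library 1A (0.0622), control library 2B (0.079) or any VA-free mouse (0.0741 to 0.109). Without control mouse 2 the log2 fold change of Inha was 1.26. Myostatin (Mstn), a brake on muscle growth made mainly by myofibers, was 0.556, 0.197 and 0.17 CPM against 2.33 and 0.0853 CPM, so the control mice lay on both sides of the VA-free mice. Its log2 fold change of -1.95 (SE 1.17, adjusted p = 0.23) turned to 1.84 without control mouse 1 and reached -2.91 without control mouse 2. Gdf11, a close relative of myostatin, differed by -0.54 (SE 0.25, adjusted p = 0.129) at means of 3.07 and 4.47 CPM, and passed at -1.08 with the length trend removed (adjusted p = 0.0165).

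**Figure D3:**
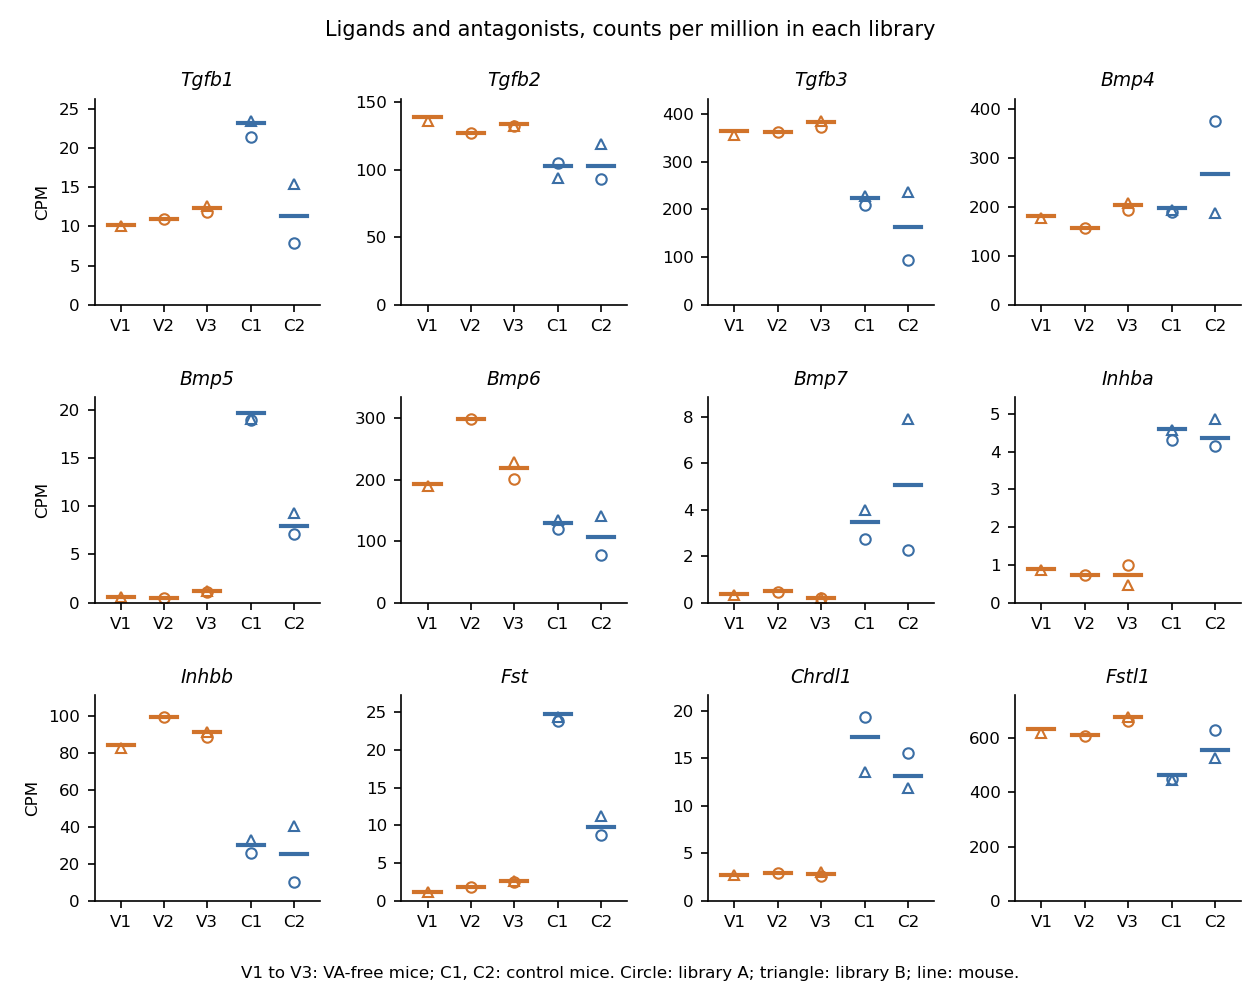
CPM (y axis from 0) of 9 ligands and 3 antagonists, with circles for library A, triangles for library B and lines for the mouse. Inhbb lies between 82.6 and 99.3 CPM in the VA-free libraries and between 10 and 40.3 CPM in the control libraries, whereas Bmp5, Bmp7, Inhba, Fst and Chrdl1 are lower in all VA-free libraries.

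Ltbp3 and Ltbp1, genes of the latent TGF-β complex, had the largest rises among the members with a mean above 1 CPM on both diets. Ltbp1, which crosslinks latent TGF-β to the matrix, stood at 658, 663 and 778 CPM in the VA-free mice and at 185 and 184 CPM in the control mice (log2 fold change 1.92, SE 0.13, adjusted p = 0.000246). Ltbp3 rose alike, from 87.9 and 71.7 CPM to 282, 309 and 337 CPM (log2 fold change 1.95, SE 0.15, adjusted p = 0.000309). For both genes the control libraries reached at most 248 and 116 CPM and the VA-free libraries at least 643 and 275 CPM. Bmp1, a metalloprotease that cuts procollagens and LTBPs, rose from 81.3 and 60.8 CPM to 202, 229 and 226 CPM (log2 fold change 1.63, SE 0.16, adjusted p = 0.000529). The calls of Ltbp1, Ltbp3 and Bmp1 held under all 22 alternatives, at 1.34, 1.69 and 1.14 with the length trend removed. Their differences lay above the median of 1.24 of the MuSC markers, as did 9 of the 21 members that rose, and the part of the MuSC markers' rise in them was not tested.

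Ltbp4 was the most abundant LTBP and the least even between libraries. It stood at 1952, 2646 and 2774 CPM in the VA-free mice and at 1388 and 911 CPM in the control mice (log2 fold change 1.10, SE 0.24, adjusted p = 0.00983). Within control mouse 2, library 2A held 164 CPM and library 2B 1637 CPM. The protein-coding transcript Ltbp4-205 made up 25.9% of the gene's TPM in library 2A, where 2 short retained-intron transcripts took 52% and 22.1%, and 83.2% to 99.1% in the other 7 libraries. The call was lost without control library 2B (1.65, adjusted p = 0.203), without control library 1A (0.92, adjusted p = 0.0513) and once the length trend was removed (0.53, adjusted p = 0.149). Ltbp2, which does not bind latent TGF-β, was near 2 CPM on both diets (means 2.18 and 2.3 CPM, log2 fold change -0.07, SE 0.59, adjusted p = 0.939).

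Type II receptors bind the ligand and activate the type I kinases, and 3 of 4 rose. Tgfbr2, the TGF-β type II receptor and the most abundant of them, stood at 214, 232 and 203 CPM in the VA-free mice and at 126 and 105 CPM in the control mice (log2 fold change 0.91, SE 0.13, adjusted p = 0.002). Acvr2a and Acvr2b, the activin and myostatin receptors, differed by 0.81 (SE 0.11, adjusted p = 0.0014) and 1.65 (SE 0.24, adjusted p = 0.00215). In CPM, Acvr2a was 92.8, 90.8 and 86.9 against 49.8 and 53, and Acvr2b was 16.7, 21.9 and 18.4 against 7.27 and 4.83. No library overlapped between the diets for these 3 genes. Bmpr2, the BMP type II receptor with the longest transcripts of the members, was 30.2, 21.2 and 18.8 CPM against 32.4 and 36.7 CPM (log2 fold change -0.56, SE 0.22, adjusted p = 0.0786). Bmpr2 fell at -1.19 with the length trend removed (adjusted p = 0.00165) and at -0.79 without VA-free mouse 1 (adjusted p = 0.0209). It also passed with DESeq2 (-0.58, adjusted p = 0.0375), without the filter on low counts (-0.59, adjusted p = 0.0476) and with 8 libraries as separate samples (-0.66, adjusted p = 0.0275). Tgfbr2 no longer passed with the length trend removed (0.32, adjusted p = 0.121) or without control library 2B (1.27, adjusted p = 0.0629). Acvr2b missed with 1 library per mouse (1.78, adjusted p = 0.079).

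Type I receptors were divided, with 3 rises and 1 fall among 6. Tgfbr1, which pairs with Tgfbr2, was the most abundant of the 6 per length as a mean over all mice and stood at 118, 117 and 130 CPM against 63.8 and 81.4 CPM (log2 fold change 0.75, SE 0.14, adjusted p = 0.00598). By diet, Tgfbr1 had 48.8 TPM and Acvrl1 10.6 TPM in the VA-free mice, and 20.5 and 47.9 TPM in the control mice. The BMP receptors Bmpr1a and Acvr1 differed by 0.60 (SE 0.12, adjusted p = 0.00826) and 0.77 (SE 0.19, adjusted p = 0.017). Bmpr1a was 96.8, 90.4 and 85.3 CPM against 55 and 64.5 CPM, and Acvr1 was 35.5, 45.6 and 48.6 CPM against 28.7 and 22.1 CPM, with overlap between single libraries for Acvr1. The activin receptor Acvr1b (means 3.03 and 2.55 CPM) and the BMP receptor Bmpr1b (means 4.4 and 2.23 CPM) were low and did not pass (log2 fold changes 0.25 and 0.98, adjusted p = 0.552 and 0.138). After removal of the length trend Tgfbr1, Bmpr1a and Acvr1 were at 0.17, 0.07 and 0.47 and none of the 3 passed (adjusted p = 0.445, 0.69 and 0.104). Nor did they pass without control library 2B (adjusted p = 0.111, 0.111 and 0.0733). Acvr1 also missed without control library 1A (adjusted p = 0.176) or VA-free mouse 2 or 3 (0.0529 and 0.0607). Without control mouse 2 the log2 fold changes of Acvr1 and Bmpr1b were 0.58 and 1.79.

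Acvrl1 and Eng, the type I receptor ALK1 and its co-receptor endoglin, which serve BMP9 and BMP10 signaling in endothelium, fell together. Acvrl1 was 11.1, 16.1 and 14 CPM in the VA-free mice and 104 and 55.1 CPM in the control mice (log2 fold change -2.53, SE 0.28, adjusted p = 0.000768). Eng was 42.9, 40.5 and 36.3 CPM against 251 and 98 CPM (log2 fold change -2.13, SE 0.35, adjusted p = 0.00318). Control library 2A, with 37.2 CPM of Eng, lay among the VA-free libraries, and without library 2B the adjusted p of Eng was 0.105. All 13 endothelial markers fell in the same samples, Pecam1 from 628 and 302 CPM to 30.9, 44.4 and 39.1 CPM, and their part in the falls of Acvrl1 and Eng was not tested. The other co-receptor, betaglycan (Tgfbr3), which presents TGF-β2 and inhibin to the receptors, rose from 393 and 350 CPM to 871, 998 and 910 CPM (log2 fold change 1.32, SE 0.13, adjusted p = 0.000524). Tgfbr3 had the highest mean TPM of the receptor and co-receptor genes on both diets and kept its call under all 22 alternatives. In the control mice it overlapped with Eng, at 101 and 111 TPM beside 58.3 and 134 TPM.

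**Figure D4:**
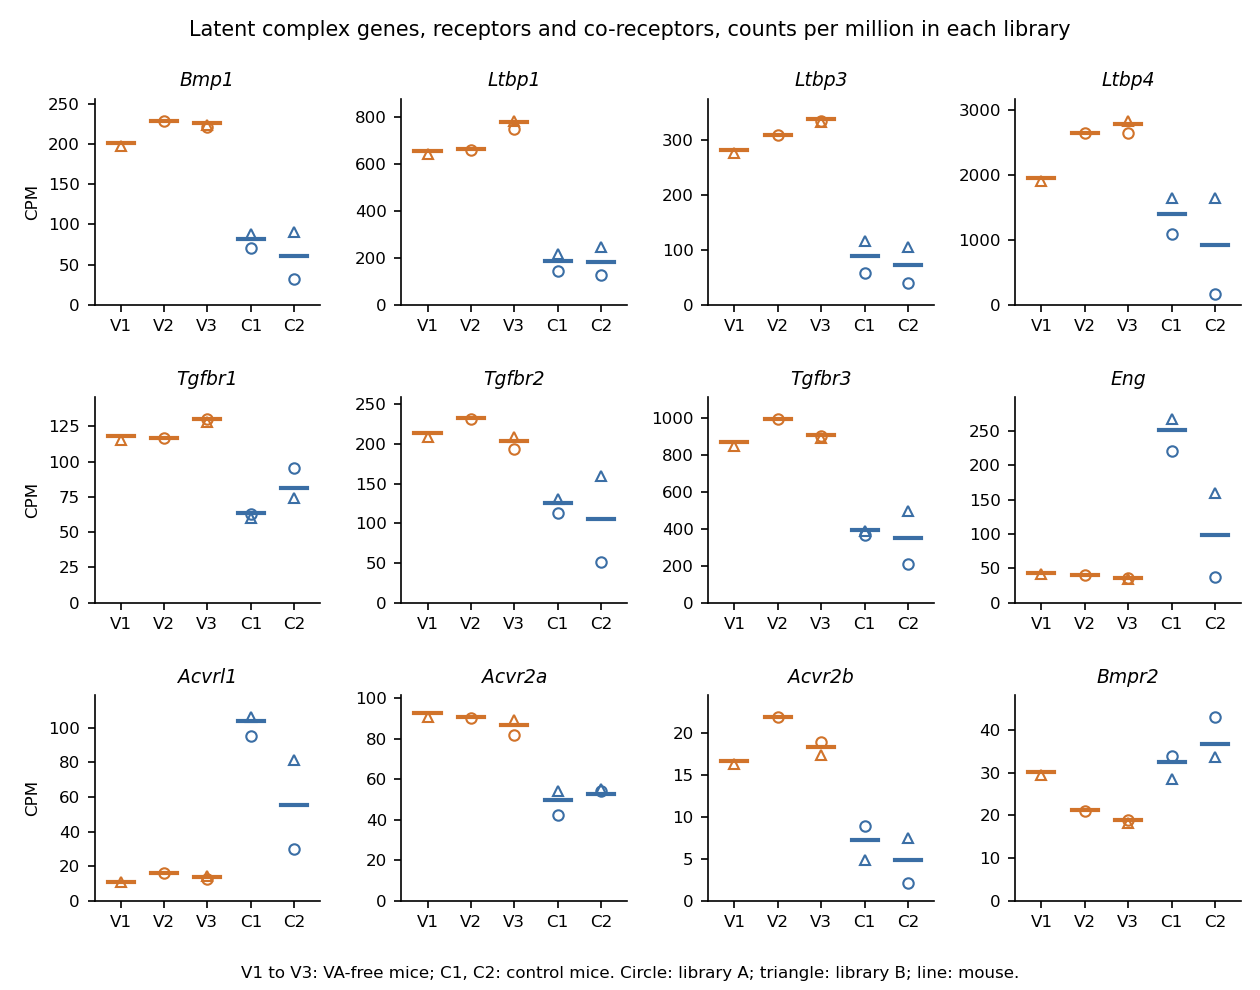
CPM (y axis from 0) of Bmp1, 3 LTBPs, 6 receptors and 2 co-receptors in each library (circle A, triangle B) and mouse (line). Ltbp4 spans 164 to 1637 CPM between the libraries of control mouse 2. Acvrl1 and Eng are higher in both control mice than in every VA-free mouse, while control library 2A of Eng (37.2 CPM) lies among the VA-free libraries.

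Of the 4 extracellular antagonists tested 2 fell and 2 did not pass. Follistatin (Fst), which traps activin and myostatin, was 1.2, 1.81 and 2.61 CPM in the VA-free mice and 24.8 and 9.73 CPM in the control mice (log2 fold change -3.20, SE 0.47, adjusted p = 0.0021). Chrdl1, a chordin-like binder of BMPs, was 2.75, 2.92 and 2.83 CPM against 17.2 and 13.1 CPM (log2 fold change -2.42, SE 0.21, adjusted p = 0.000373). Neither overlapped in any library, and both kept their calls under all 22 alternatives. Fstl1, a follistatin-like glycoprotein and the most abundant of the list, was 633, 610 and 677 CPM against 464 and 555 CPM and Fstl3, which binds activin, was 29.5, 24.7 and 36 CPM against 21.3 and 21.8 CPM. Their differences of 0.33 (SE 0.13, adjusted p = 0.0857) and 0.48 (SE 0.18, adjusted p = 0.0749) missed the threshold. Fstl1 passed without control library 2A (0.37, adjusted p = 0.0383), was at 0.46 without control mouse 2 and lay at -0.11 with the length trend removed. Fstl3 passed without VA-free mouse 2 (0.61, adjusted p = 0.046). Fibro-adipogenic and tenocyte markers fell beside Fst and Chrdl1, from 510 and 283 CPM to 13.8, 19.6 and 17.8 CPM for Ly6a and from 399 and 278 CPM to 13.5, 7.03 and 14.8 CPM for Thbs4, and their part in these falls was not tested.

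Of the receptor-regulated SMADs 4 of 5 rose, beside a rise of the MuSC markers (median 1.24) whose part was not tested. Smad3 rose most among those above 1 CPM, from 16 and 24 CPM to 58.8, 53 and 58.7 CPM (log2 fold change 1.5, SE 0.19, adjusted p = 0.00128). Smad2, its partner downstream of TGF-β and activin, stood at 102, 99 and 86.9 CPM against 60.9 and 70.8 CPM (log2 fold change 0.54, SE 0.13, adjusted p = 0.0145). On the BMP side Smad5 rose from 120 and 96.5 CPM to 233, 156 and 210 CPM (log2 fold change 0.88, SE 0.20, adjusted p = 0.0117), whereas Smad1 overlapped at 66.3, 80.6 and 82 CPM against 105 and 75.3 CPM (log2 fold change -0.24, SE 0.17, adjusted p = 0.309). Smad9 was scarce, with 26 to 84 estimated counts in a VA-free library and 2 to 21 in a control library (0.731, 1.51 and 0.565 CPM against 0.142 and 0.256 CPM). Its log2 fold change of 2.21 (SE 0.67, adjusted p = 0.0364) lost its call under 10 of 22 alternatives. Smad4, the shared partner of both branches, rose from 138 and 111 CPM to 196, 211 and 208 CPM (log2 fold change 0.72, SE 0.13, adjusted p = 0.00511). The inhibitory SMADs, both feedback targets of the pathway, did not pass, with Smad6 at 12.2, 17.1 and 12.6 CPM against 14.2 and 10.7 CPM (log2 fold change 0.16, SE 0.23, adjusted p = 0.605) and Smad7 at 21, 30.9 and 28.5 CPM against 23.6 and 14.3 CPM (log2 fold change 0.50, SE 0.26, adjusted p = 0.177).

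Smad3 and Smad4 kept their calls under all 22 alternatives. With the length trend removed Smad3 stood at 0.91 and Smad4 at 0.55, while Smad2 (0.42, adjusted p = 0.0519), Smad5 (0.28, adjusted p = 0.289) and Smad9 (1.62, adjusted p = 0.11) no longer passed. Smad2 and Smad5 also missed without control library 2B (adjusted p = 0.0568 and 0.0636), and Smad2 without VA-free mouse 1 or 2 (0.0574 and 0.0534). Without control mouse 2 the log2 fold change of Smad5 was 0.73. Smad9 missed without control libraries 1A, 1B or 2A (adjusted p = 0.0808, 0.0527 and 0.0847) and without VA-free mouse 1 or 2 (0.0646 and 0.0999). Without control mouse 1 or 2 its log2 fold change was 1.85 and 2.69. Smad7 was at 0.91 without control mouse 1. Among transcripts, picked after their values were seen, Smad5-201 made up 76% to 88.5% of the TPM of Smad5 in the VA-free libraries and 46.8% to 67.4% in the control libraries. The main coding transcript of Tgfb1, Tgfb1-201, went the other way, at 31.8% to 44.7% against 55.1% to 66%. These shares are estimates from short reads and were not tested.

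The ID genes are direct BMP targets, and 3 of 4 fell. Id1 was 75.6, 96.6 and 90.9 CPM in the VA-free mice and 395 and 162 CPM in the control mice (log2 fold change -1.67, SE 0.34, adjusted p = 0.00747). Id2 fell from 225 and 206 CPM to 109, 132 and 110 CPM (log2 fold change -0.89, SE 0.13, adjusted p = 0.00205). Id4, the least abundant, fell from 72.7 and 45.8 CPM to 22.2, 26.6 and 30.7 CPM (log2 fold change -1.16, SE 0.22, adjusted p = 0.00637). Every control library lay above every VA-free library for these 3 genes. Id3, the most abundant member per length (in TPM), was 1064, 1511 and 1019 CPM in the VA-free mice and 1804 and 922 CPM in the control mice, which lay on both sides (log2 fold change -0.19, SE 0.30, adjusted p = 0.664). Id2 and Id4 kept their calls under all 22 alternatives, at -0.44 and -1.66 with the length trend removed, while Id1 missed there (-1.01, adjusted p = 0.0598) and with 1 library per mouse (-1.58, adjusted p = 0.0503). Id1 and Id3 are also abundant in endothelium, whose markers fell in the same samples. The part of the marker changes in the differences of the 4 ID genes was not tested.

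Promoter sequences of Id2, Id3 and Id4 are shown as those of 2 ID genes that fell and of the most abundant one. The promoter of Id1 was not analysed here. They are the 250 bases before the RefSeq start in GRCm38.p6, 5′ to 3′ on the gene's strand, with each GGCGCC in capitals, the GC-rich element that BMP SMADs and SMAD4 can bind. The stretches are chr12:25096093-25096342 on the minus strand for Id2, chr4:136143572-136143821 on the plus strand for Id3 and chr13:48260866-48261115 on the plus strand for Id4.
Id2: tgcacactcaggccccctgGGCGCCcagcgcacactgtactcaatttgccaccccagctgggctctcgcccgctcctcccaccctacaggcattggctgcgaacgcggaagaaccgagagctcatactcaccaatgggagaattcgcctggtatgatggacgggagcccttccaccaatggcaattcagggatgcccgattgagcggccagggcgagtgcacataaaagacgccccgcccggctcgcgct
Id3: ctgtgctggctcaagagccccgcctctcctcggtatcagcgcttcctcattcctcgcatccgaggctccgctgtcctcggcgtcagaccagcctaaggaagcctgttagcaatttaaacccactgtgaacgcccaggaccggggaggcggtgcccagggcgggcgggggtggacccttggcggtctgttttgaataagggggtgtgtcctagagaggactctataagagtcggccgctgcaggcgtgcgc
Id4: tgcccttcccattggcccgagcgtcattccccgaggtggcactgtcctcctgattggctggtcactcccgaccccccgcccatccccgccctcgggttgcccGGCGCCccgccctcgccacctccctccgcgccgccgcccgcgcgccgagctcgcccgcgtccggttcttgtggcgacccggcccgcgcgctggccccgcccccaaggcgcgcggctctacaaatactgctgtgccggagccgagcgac
GGCGCC, which reads the same on both strands, began 231 bases before the start of Id2 and 148 bases before that of Id4, and these letters were not in the window of Id3. It was in 9.59% of all 32851 RefSeq windows, searched over the same 250 bases, and in 10 of the 43 windows (23.3%) of the 35 members matched. These 10 windows belong to 9 members, namely Bmpr2, Grem1, Smad9, Tgfbr1, Ltbp4, Id2, Id4, Smad5 and Bmpr1a. The palindrome GTCTAGAC was in 0.167% of windows, and GGCGCC followed after 5 bases by AGAC or GTCT, on either strand, in 0.103%. Neither was in a window of the members matched. A match of letters is a description of the sequence and says nothing of whether a SMAD is bound there.

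**Figure D5:**
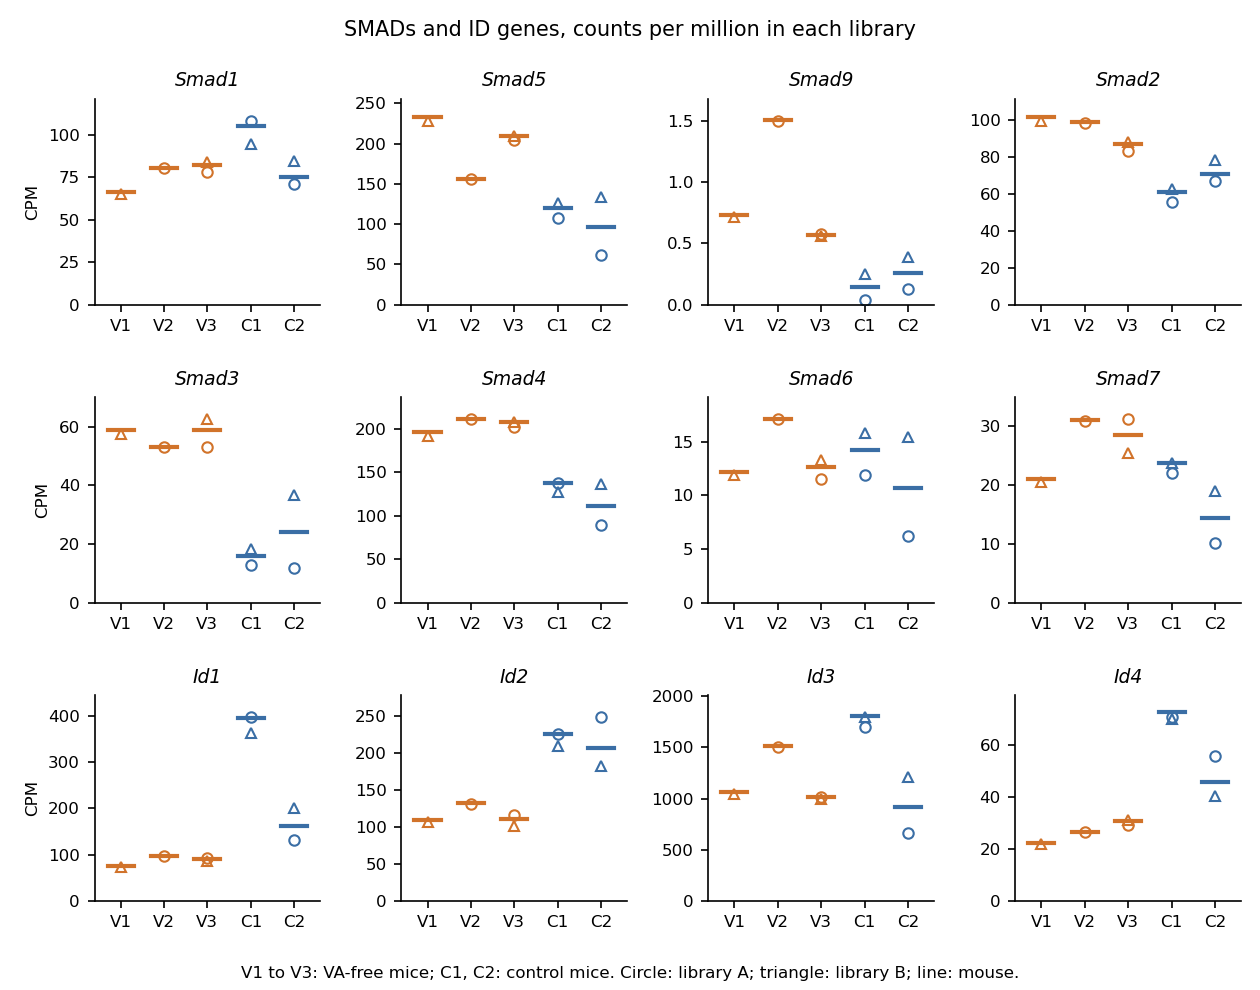
CPM (y axis from 0) of the 8 SMADs and 4 ID genes in each library (circle A, triangle B) and mouse (line). Smad3 lies between 52.9 and 62.5 CPM in the VA-free libraries and between 11.7 and 36.6 CPM in the control libraries, whereas Id1, Id2 and Id4 are lower in all 4 VA-free libraries.

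Of 87 other genes of the pathway, listed by role, 77 were tested, of which 25 rose (32.5%) and 16 fell (20.8%), with a median log2 fold change of 0.29. Intracellular regulators, such as ubiquitin ligases, deubiquitinases and SMAD co-repressors, held 10 rises and 2 falls of 20 tested. Matrix binders and antagonists held 9 rises and 4 falls of 21, and other targets 3 rises and 5 falls of 17. Other ligands held 1 rise and 4 falls of 13, and other receptors and co-receptors 2 rises and 1 fall of 6. These counts are read beside the 18.9% and 22.5% of all genes.

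Fbn1, the fibrillin to which LTBPs attach, rose most among those with a mean of at least 5 CPM, from 273 and 298 CPM to 1013, 797 and 741 CPM (log2 fold change 1.57, SE 0.17, adjusted p = 0.00071). Runx1, a transcription factor, rose from 127 and 123 CPM to 329, 361 and 386 CPM (1.52, SE 0.12, adjusted p = 0.000349). Ube2o, which monoubiquitinates SMAD6, was at 1.48 (SE 0.20, adjusted p = 0.00143). Itgav, the αv integrin chain that can free latent TGF-β, stood at 1.44 (SE 0.13, adjusted p = 0.000418). The co-repressor Ski had the same log2 fold change of 1.44 (SE 0.29, adjusted p = 0.00754), with libraries that overlapped.

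Decorin (Dcn), a proteoglycan that binds TGF-β and is made by fibroblastic cells, fell most, from 1463 and 1394 CPM to 54.3, 50.8 and 89.4 CPM (log2 fold change -4.46, SE 0.27, adjusted p = 0.000226). Lrrc32, a cell-surface anchor of latent TGF-β, fell from 128 and 45.3 CPM to 4.76, 12.1 and 8.07 CPM (-3.38, SE 0.51, adjusted p = 0.00231), with overlap between libraries. The BMP target Msx1 fell by 2.24 on the log2 scale (SE 0.24, adjusted p = 0.000645) and fibronectin (Fn1) by 2.18 (SE 0.25, adjusted p = 0.000843). The highest levels of the list per length, as means over all mice, were those of Junb, Ccn1, Cdkn1a and Acta2, with 3350, 1589, 1108 and 892 TPM. Of these 4 Cdkn1a, an inhibitor of cyclin-dependent kinases, fell from 1195 and 1177 CPM to 462, 432 and 545 CPM (log2 fold change -1.31, SE 0.14, adjusted p = 0.000605), and Junb, Ccn1 and Acta2 differed by 0.04, -0.09 and -0.36 (adjusted p = 0.869, 0.639 and 0.174). The falls of Dcn and Lrrc32 stand beside the falls of the fibro-adipogenic and endothelial markers, whose part in them was not tested.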

How the data were processed

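RNA-Seq was analysed for 3 VA-free and 2 control mice (8 libraries). The authors made full-length cDNA with SMART-Seq v4 and Nextera XT libraries, read them at 75 bp single-end and, per the labels, quantified them with kallisto 0.46.2 on GRCm38. The deposited values are estimated counts per transcript, without normalization between libraries, and TPM, which the authors' tool scales by length and which keeps no depth. Expected counts were summed per gene through the Ensembl 96 annotation (GENCODE vM21), added over the libraries of a mouse and rounded. Transcripts without a gene, 0.647% to 0.756% of a library's counts, were left out.

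VA-free and control mice were tested against each other in R 4.3.3 with edgeR 4.0.16 (TMM, filterByExpr, quasi-likelihood fit, Benjamini-Hochberg over all genes). The SE is the log2 fold change divided by the square root of F. TPM were used to compare levels between genes. The authors' methods name tximport and DESeq2, and DESeq2 1.42.0 was an alternative here, as were limma 3.58.1 with voom, limma on log2(TPM + 1) and log2(TPM + 0.1), other scalings, filters and offsets, a removed length trend, other uses of the technical replicates, a replicate block, and fits without each library or mouse. In a simulation over 17433 genes, 195 of them changed, edgeR called 30 genes changed 2-fold, 74 changed 4-fold and 15 unchanged genes. The simulated counts held no length trend and far fewer changed genes than the 3403 and 4056 called in the data. These rates are therefore no estimate for the data. With 2 control mice the spread of that diet rests on 1 difference between animals, and depth limits members near 1 CPM or below.

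The members and lists were chosen with earlier results of these data known. Every member is named, with full values for those past the threshold and the most abundant of each role. Of the other pathway genes up to 4 of the largest rises and falls above a mean of 5 CPM and the 4 with the highest mean TPM are named, with Ski added for a tied value and, where a marker list is described by gene, up to 3 of its most abundant. Promoters were read from a RefSeq table that matched 35 of the 48 members.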

Additional observations from a re-analysis of the deposited data

Results flagged for a closer look

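Among 92 groups of 4 libraries (46 members on 2 diets), 5 held a library farther from the rest than Dixon's 95% limit allows, and chance alone would flag about 1 in 20 groups of 4 independent samples. The libraries of a group share mice, so that rate is only a guide here. Bmp4 had 375 CPM in control library 2A and 187 to 193 CPM in the other control libraries. Acvr2a had 42.5 CPM in control library 1A (the others 54.3 to 55.3) and 82 CPM in VA-free library 3A (the others 89.3 to 90.7), both toward the lower side. Smad9 had 1.5 CPM in VA-free library 2A (the others 0.563 to 0.715), and Id3 had 1508 CPM in the same library (the others 998 to 1040). The flags of Smad9 and Id3 lie in the only library of that mouse, so a mouse and a library cannot be told apart there. The call of Acvr2a held under all 22 alternatives.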

How the results depend on the processing

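Of the 46 members tested, 17 kept both their call and direction under all 22 alternatives, namely Acvr2a, Acvrl1, Bmp1, Bmp5, Bmp6, Bmp7, Chrdl1, Fst, Id2, Id4, Inhba, Inhbb, Ltbp1, Ltbp3, Smad3, Smad4 and Tgfbr3. No alternative adjusted for the cell type markers. The share of all called genes that kept their call was not computed, so the count of 17 has no background to be read against. Of 1012 member values under an alternative 892 kept side and direction, 63 lost a call, 22 gained one and 35 turned direction, and no value that turned belonged to a member past the threshold. With the length trend removed the number of members that rose went from 21 to 12, and that of all genes called higher from 3403 to 2176. The number of members that rose ranged from 11 to 21 when a VA-free mouse or a library was left out. The number that fell ranged from 9 to 12 and the number of all genes called from 4476 to 7744. The median over members was 0.59 with 1 library per mouse, 0.21 with the length trend removed, 0.35 with the replicate block, and 0.32 to 0.46 with a mouse or library left out. On the TPM scales (pseudocount 1 and 0.1) it was 0.73 and 0.84, beside medians of 0.192 and 0.354 over all genes, a shift by which any TPM value has to be read. Other pathway genes that rose numbered 16 (1 library per mouse), 13 (length), 38 and 38 (TPM) and 13 to 27 (left out), and those that fell 9, 10 and 10 (1 library per mouse, TPM, TPM) and 7 to 16.

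Turned values were as follows, and their cause was not tested. With TPM (pseudocount 1, then 0.1) Tgfb1 was 0.10 and 0.11, Bmp2 0.33 and 0.37, Bmp4 0.04 and 0.04, Ltbp2 0.13 and 0.21, Smad1 0.31 and 0.32 and Id3 0.34 and 0.34. With 1 library per mouse Bmp2 was 0.19, Ltbp2 0.57 and Id3 0.01. With the length trend removed Bmp4 was 0.11, Acvr1b -0.32, Fstl1 -0.11, Smad6 -0.17 and Id3 0.26. With a mouse or library left out Bmp2 ranged from -0.57 to 0.52, Id3 from -0.60 to 0.38, Ltbp2 from -0.64 to 0.33, Mstn from -2.91 to 1.84, Smad1 from -0.47 to 0.02 and Smad6 from -0.09 to 0.43.

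Whether replicate numbers pair the mice could not be decided. Deviations of same-numbered mice from their diet's mean correlated at -0.022 and 0.006. With 2 control mice these deviations are mirror images of each other, so such values cannot show pairing or its absence. With the replicate block 18 members rose and 10 fell, and Tgfb2, Inha and Acvr1 lost their calls (adjusted p = 0.176, 0.143 and 0.0747 by edgeR).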
